A study of Mus musculus with 8 samples.

Results

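The insulin-like growth factor (IGF) axis was examined in mouse whole aorta through the transcripts of its ligands Igf1 and Igf2, its receptors Igf1r and Igf2r, and its binding proteins Igfbp2, Igfbp3, Igfbp4, Igfbp5, Igfbp6 and Igfbp7. These 10 genes were taken by symbol from a table of 48607 assembled loci. Where several loci carried a symbol, the one with the highest summed count stood for the gene. For Igf1r that locus overlaps no annotated exon, so the annotated Igf1r locus is described as the gene and the other beside it.

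All mice lacked ApoE, which makes them prone to atherosclerosis, and were fed a Western diet for 12 weeks. NPRC, the natriuretic peptide clearance receptor encoded by Npr3, was disrupted throughout the body in the second genotype by a CRISPR/Cas9 frameshift in exon 1 on the C57BL/6 background, the mice were crossed to ApoE-/- mice, and the comparison was with ApoE-/- littermates. The age of these mice is not given in the sources used here. Values of 8 libraries were analysed, fewer than the study describes. By their titles, 5 were ApoE-/- (1 to 5) and 3 were NPRC-/-ApoE-/- (1 to 3). A second label, the genotype entry, matched the title in 4 cases (ApoE-/- 1, 2 and 3, and NPRC-/-ApoE-/- 3) and named the opposite genotype in the other 4 (ApoE-/- 4 and 5, and NPRC-/-ApoE-/- 1 and 2). No source used here says which label applies, so libraries are called by their titles and the differences between groups are given by title and by genotype entry. The methods count mice per genotype but the labels tie no library to a mouse, so p-values measure only the spread between these libraries.

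IGF-1 and IGF-2 are small secreted growth factors that resemble insulin. Both act through the tyrosine kinase receptor encoded by Igf1r, while the receptor encoded by Igf2r takes IGF-2 up for degradation and carries enzymes to lysosomes. The binding proteins hold IGFs in plasma and in the tissue matrix and either limit or prolong their action. In the arterial wall, IGF-1 is known as a survival and growth factor of smooth muscle cells.

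Npr3 was at 0.62 to 1.69 FPKM (fragment counts that the authors scaled to transcript length and library) in the 5 libraries titled ApoE-/-, and at 1.13 to 1.39 in those titled NPRC-/-ApoE-/-. Its log2 fold change was 0.10 by title (edgeR adjusted p = 0.90) and 0.16 by genotype entry, so the transcript level of the targeted gene did not separate the groups in either way. A frameshift can leave a transcript in place, so this level does not check the labels. The summed FPKM of 8 smooth muscle markers was 1339 to 1786 in the libraries titled ApoE-/- and 1729 to 2964 in the others, so the defining genes of the aortic media were abundant in all libraries. No smooth muscle, fibroblast, endothelial or macrophage marker was listed at 0 in any library. Skeletal muscle markers split the libraries in another way, with a mean of -1.60 to -1.16 log2 CPM (counts scaled to the library, on a log2 scale) in ApoE-/- 2, 3 and 4 and of 2.73 to 3.39 in the other 5. Myh4 was listed at 0 FPKM in 2 of those 3 libraries.

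In GRCm38 with the GENCODE M21 annotation, Igf1 lies on the plus strand at chr10:87858265-87937042 and Igf2 on the minus strand at chr7:142650766-142666816. Igf1r is at chr7:67952827-68233668 on the plus strand and Igf2r at chr17:12682406-12769664 on the minus strand. Igfbp4 is at chr11:99041244-99054392 (plus), Igfbp3 at chr11:7206086-7213923 (minus), Igfbp6 at chr15:102144362-102149511 (plus) and Igfbp7 at chr5:77349240-77408041 (minus). Igfbp2 at chr1:72824503-72852474 (plus) and Igfbp5 at chr1:72857932-72874884 (minus) are convergent neighbours whose 3' ends are 5.5 kb apart.

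The sequences upstream of Igfbp4, Igfbp2 and Igfbp5 are shown because Igfbp4 is the binding protein whose titled groups did not overlap, and Igfbp2 and Igfbp5 are neighbours with opposite levels across the libraries, as described further on. They are from RefSeq promoter windows on GRCm38.p6, which held all 10 genes, read 5' to 3' on the strand of the gene and ending at the RefSeq start or, for Igfbp5, before the first annotated exon base. Capitals mark matches on either strand to the TATA box motif TATAAA, the CAAT box motif CCAAT, the GC box motif GGGCGG or the motif TGACG of the cAMP response element, and no matches overlapped.
Igfbp4, chr11:99040994-99041243, plus strand: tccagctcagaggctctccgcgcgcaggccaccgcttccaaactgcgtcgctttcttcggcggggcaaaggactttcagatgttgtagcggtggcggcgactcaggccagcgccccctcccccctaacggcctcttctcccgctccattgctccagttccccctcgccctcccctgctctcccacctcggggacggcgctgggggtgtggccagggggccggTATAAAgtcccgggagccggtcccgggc
Igfbp2, chr1:72824230-72824479, plus strand: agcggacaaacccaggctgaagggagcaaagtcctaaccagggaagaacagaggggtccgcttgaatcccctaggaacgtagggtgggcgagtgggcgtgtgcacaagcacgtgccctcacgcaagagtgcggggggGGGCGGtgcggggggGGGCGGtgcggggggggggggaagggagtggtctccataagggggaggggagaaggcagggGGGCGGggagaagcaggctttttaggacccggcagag
Igfbp5, chr1:72874885-72875115, minus strand: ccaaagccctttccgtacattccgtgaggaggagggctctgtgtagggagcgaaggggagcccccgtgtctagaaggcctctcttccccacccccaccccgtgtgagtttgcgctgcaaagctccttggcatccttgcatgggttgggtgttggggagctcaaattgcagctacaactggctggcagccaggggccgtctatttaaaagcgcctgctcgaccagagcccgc

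The Igfbp4 window held 1 TATAAA, beginning 28 bases before the start, and the Igfbp2 window held 3 GGGCGG. A second RefSeq window of Igfbp2, at chr1:72825137-72825386, held 0 matches. None of the 4 motifs was in the Igfbp5 window. Among all 32851 RefSeq windows of 250 bases, 12.4% held the TATA box motif, 32.7% the GC box motif, 33.8% the CAAT box motif and 17.8% that of the cAMP response element. The Igfbp7 window held 4 GGGCGG and the Igf1r window 2, whereas no GGGCGG was in the Igf1 window, all of which lies within an annotated Igf1 exon and is therefore not shown. These matches describe the letters of the windows and were not tested for any function.

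The authors scaled FPKM to transcript length. By this measure, the binding protein genes Igfbp7, Igfbp4 and Igfbp5 were above every ligand and receptor in all 8 libraries. Igfbp3 was below both receptors in all 8. The assembled loci held from 1 transcript (Igfbp6) to 14 (Igf1), and the lengths used for them are not given in the sources used here. Levels of different genes can therefore be compared only roughly, and their ranks depend on these lengths. In counts summed over the 8 libraries, not scaled to length, Igf2r (275903) was above Igfbp7 (188114) and Igfbp4 (251366) and below Igfbp5 (282390). Igf1r (91709), Igf1 (55294) and Igf2 (5600) were below all of these in summed counts. Igfbp7, which encodes a matrix-associated protein with low affinity for IGFs, was highest in every library at 206 ± 47.1 FPKM (SD, n = 8). Igfbp4 (75.7 ± 26.4) and Igfbp5 (62.7 ± 14.4) came next, and their order was not fixed, as Igfbp4 exceeded Igfbp5 in 5 of 8 libraries. Igfbp6, whose product prefers IGF-2, was at 12.3 ± 4.50 and Igf2r at 12.2 ± 1.81, and these did not differ beyond their spread. Igfbp2 followed at 9.14 ± 5.36, Igf1r at 6.84 ± 0.861 and Igf1 at 5.81 ± 2.16, with overlapping ranges at each step. Igf1 exceeded Igfbp3 (2.32 ± 0.491), the main carrier of IGFs in plasma, in 8 of 8 libraries although their ranges overlapped. Igf2 was lowest at 1.07 ± 0.286, below Igfbp3 in 8 of 8 libraries with no overlap.

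**Figure D1:**
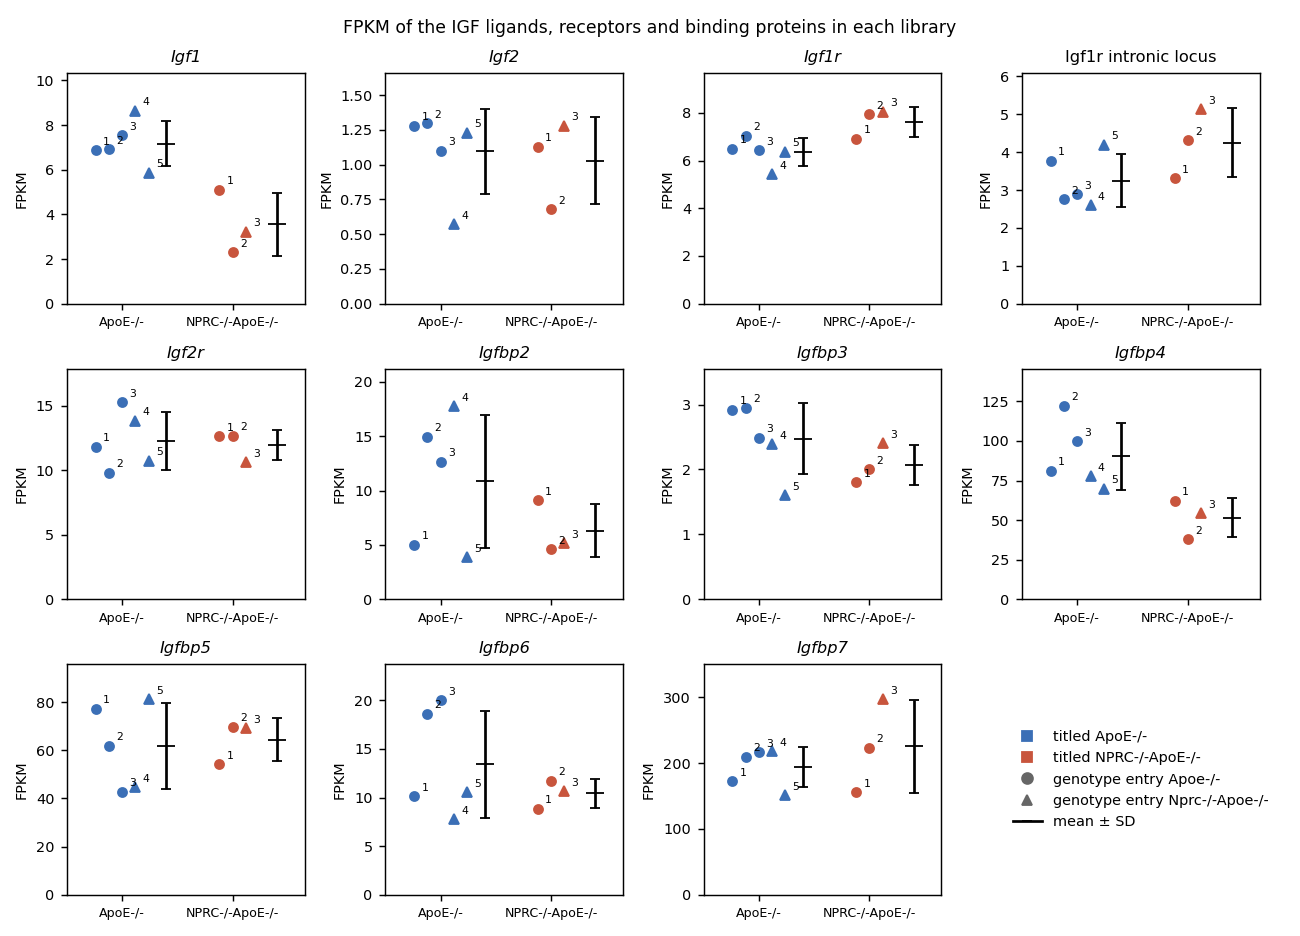
FPKM of each gene in the 8 libraries (points, with the library number of the title beside each), grouped and coloured by title and shaped by the genotype entry; bars show the mean ± SD of the titled group. The 3 libraries titled NPRC-/-ApoE-/- lie below all 5 titled ApoE-/- for Igf1 and Igfbp4, while the shapes are mixed within both.

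Between the titled groups, the ligand Igf1 and the binding protein Igfbp4 were lower in the libraries titled NPRC-/-ApoE-/-, and these were the only members with an unadjusted p under 0.05 at the loci chosen by count. They make 2 of 10 members (20%), both lower, against 13.6% of all 20506 loci tested (7.13% lower and 6.51% higher). Igf1, with a fold change of 0.498, also met the criterion used by the study of a fold change under 0.5 with p under 0.05, which 2.39% of loci met in this direction. It lay at the limit and missed it with limma on log2(FPKM + 1) (log2 fold change -0.88) or without NPRC-/-ApoE-/- 2 (-0.74). It passed the fold limit without NPRC-/-ApoE-/- 1 (-1.33). By edgeR, 0 members and 0.0% of loci had an adjusted p under 0.05. With DESeq2 it was 1 member and 3.17% of loci, with limma on log2(FPKM + 1) 0 members and 2 loci, and with array quality weights in limma 2 members and 5.70% of loci. The median log2 fold change was -0.14 over the members and -0.006 over all loci, with 7 members lower and 3 higher. Grouped by genotype entry, 0 of 10 members had an unadjusted p under 0.05 (1.31% of all loci), all had an edgeR adjusted p of 1.0, and the median was -0.03 against -0.004 over all loci. DESeq2 and limma likewise gave 0 members by genotype entry.

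**Figure D2:**
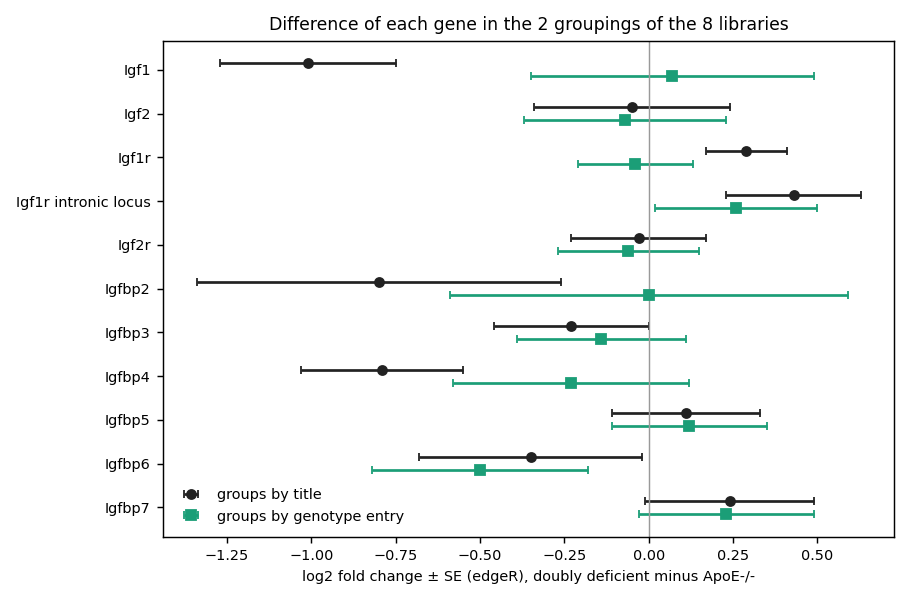
The log2 fold change with its standard error from edgeR (x axis, doubly deficient minus ApoE-/-) of each gene, with the 8 libraries grouped by title (black circles) or by genotype entry (green squares). Igf1 is at -1.01 by title and 0.07 by genotype entry, and Igfbp4 at -0.79 and -0.23.

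Igf1, the ligand with the higher level in the aorta, was at 6.87, 6.91, 7.54, 8.65 and 5.87 FPKM in ApoE-/- 1 to 5 and at 5.11, 2.31 and 3.23 in NPRC-/-ApoE-/- 1 to 3. All 3 libraries of the second set were below all 5 of the first, a separation in this direction that 4.37% of loci showed. The level was 7.17 ± 1.02 (SD, n = 5) against 3.55 ± 1.43 (n = 3), a log2 fold change of -1.01 (SE 0.26, edgeR adjusted p = 0.255, and 0.0042 unadjusted; exact permutation p = 0.036, the smallest that 5 libraries against 3 allow). Grouped by genotype entry the levels were 5.75 ± 2.12 (n = 5) and 5.92 ± 2.71 (n = 3), which differed by far less than the spread within either group (log2 fold change 0.07, SE 0.42, edgeR adjusted p = 1.0). ApoE-/- 4, with the highest Igf1 of all libraries, carries the genotype entry Nprc-/-Apoe-/-, and NPRC-/-ApoE-/- 2, with the lowest, carries Apoe-/-. Without NPRC-/-ApoE-/- 2 the log2 fold change by title was -0.74 (edgeR adjusted p = 0.745). In the 4 libraries whose labels agree it was -1.06, with 1 library on one side and therefore no test.

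Igf2 is an imprinted gene that is highly active before birth and low in adult tissues. It was at 1.28, 1.3, 1.10, 0.57 and 1.23 FPKM in ApoE-/- 1 to 5 and at 1.13, 0.68 and 1.28 in NPRC-/-ApoE-/- 1 to 3. ApoE-/- 4 and NPRC-/-ApoE-/- 2 were low and the other 6 libraries lay close together, so the titled groups overlapped. Its log2 fold change was -0.05 by title (SE 0.29, edgeR adjusted p = 0.958) and -0.07 by genotype entry. Igf1 made up 81.9, 77.3 and 71.6% of the summed ligand FPKM in NPRC-/-ApoE-/- 1 to 3, and 82.7 to 93.8% in the 5 libraries titled ApoE-/-.

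Igf1r encodes the signalling receptor of both ligands. Its annotated locus was at 6.49, 7.05, 6.43, 5.44 and 6.38 FPKM in ApoE-/- 1 to 5 and at 6.91, 7.94 and 8.05 in NPRC-/-ApoE-/- 1 to 3. In FPKM, only ApoE-/- 2 of the first set reached above the lowest of the second. In log2 CPM, ApoE-/- 2 and 3 were at 7.22 and 7.23, and NPRC-/-ApoE-/- 1 was at 7.22. The log2 fold change was 0.29 by title (SE 0.12, edgeR adjusted p = 0.353, and 0.0432 unadjusted; exact permutation p = 0.107) and -0.04 by genotype entry (SE 0.17). With Igf1 lower and Igf1r slightly higher, the ratio of Igf1 to Igf1r FPKM was 0.740, 0.291 and 0.401 in NPRC-/-ApoE-/- 1 to 3 and 0.920 to 1.59 in the 5 libraries titled ApoE-/-. This ratio was not tested, since it joins values already compared.

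The name Igf1r was carried by 8 assembled loci, and the annotated one held 21.9% of their 418390 counts. The locus with the most counts is at chr7:68070217-68118269, spans 48.1 kb on the minus strand, opposite to the gene, and overlaps no annotated Igf1r exon. It was at 3.77, 2.76, 2.89, 2.60 and 4.20 FPKM in ApoE-/- 1 to 5 and at 3.32, 4.31 and 5.13 in NPRC-/-ApoE-/- 1 to 3, with overlapping groups (log2 fold change 0.43, SE 0.20, edgeR adjusted p = 0.38, exact permutation p = 0.143). By genotype entry it was 0.26 (SE 0.24). Of the 6 loci without an annotated exon, 4 were assembled on the minus strand and 5 were tested, with log2 fold changes of 0.33 to 0.45 by title and 2 unadjusted p under 0.05. The remaining locus, at chr7:68148705-68161966 on the minus strand, overlaps 1 annotated exon and had the largest difference of those tested, 0.67 by title (SE 0.23, edgeR adjusted p = 0.309) and 0.30 by genotype entry. Whether these reads come from unspliced Igf1r RNA or from other transcripts cannot be told apart, since the libraries were made with a strand-marking dUTP protocol but whether the counting used strand is not given in the sources used here. With the annotated locus in place of the one with the most counts, 3 of 10 members had an unadjusted p under 0.05 by title, 2 lower and 1 higher. Of all 20506 loci tested, 13.6% had such a p, 7.13% lower and 6.51% higher.

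Igf2r, the uptake receptor of IGF-2, shared its assembled locus with a second gene name, CT030636, so the reads of both are in its values. It was at 11.8, 9.80, 15.3, 13.8 and 10.7 FPKM in ApoE-/- 1 to 5 and at 12.6, 12.7 and 10.6 in NPRC-/-ApoE-/- 1 to 3, inside the range of the first set. The log2 fold change was -0.03 by title (SE 0.20, edgeR adjusted p = 0.961) and -0.06 by genotype entry. Antisense RNAs known at Igf2 and Igf2r could not be separated from the genes in these counts.

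Among the binding proteins, Igfbp4 encodes a protein that mostly inhibits IGF action and is cleaved by the protease PAPP-A. It was at 81.2, 122, 99.7, 77.7 and 69.9 FPKM in ApoE-/- 1 to 5 and at 62.2, 37.9 and 54.2 in NPRC-/-ApoE-/- 1 to 3. As for Igf1, the 3 libraries of the second set were below all of the first, and NPRC-/-ApoE-/- 2 was the lowest. The levels were 90.2 ± 21.1 (SD, n = 5) and 51.5 ± 12.4 (n = 3), a log2 fold change of -0.79 (SE 0.24, edgeR p = 0.0104, adjusted p = 0.285, and 0.036 by the exact permutation test, the smallest it allows). By genotype entry the levels were 80.7 ± 32.7 (n = 5) and 67.3 ± 11.97 (n = 3), with overlapping ranges and a log2 fold change of -0.23 (SE 0.35, edgeR adjusted p = 1.0). Without NPRC-/-ApoE-/- 2 the difference by title was -0.58 and its unadjusted edgeR p was no longer under 0.05 (adjusted p = 0.755).

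The share of Igfbp4 in the summed FPKM of the 6 binding proteins was 23.2, 28.4, 25.2, 21.1 and 21.9% in ApoE-/- 1 to 5. In NPRC-/-ApoE-/- 1 to 3 it was 21.3, 10.8 and 12.3%, so NPRC-/-ApoE-/- 1 lay within the range of the libraries titled ApoE-/- on this measure. The sum itself ran from 318.6 to 430.7 FPKM in ApoE-/- 1 to 5 and was 292.6, 349.6 and 439.1 in the others. Igfbp7 took 47.5 to 67.7% of it, with the 2 highest shares in NPRC-/-ApoE-/- 2 and 3 (63.9 and 67.7%).

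**Figure D3:**
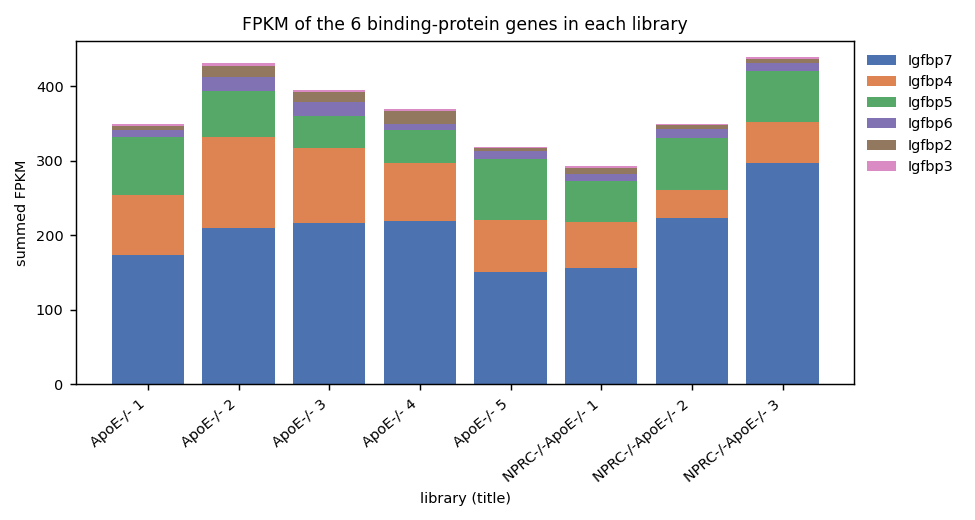
Stacked bars of the FPKM of the 6 binding-protein genes (y axis) in each library (x axis, by title). Igfbp7 is the largest part of every bar, and the Igfbp4 part is smallest in NPRC-/-ApoE-/- 2 (37.9 FPKM) and NPRC-/-ApoE-/- 3 (54.2 FPKM).

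Igfbp2, a binding protein high in fetal tissue and with affinity for IGF-2, varied most among the members, with a coefficient of variation of 58.6% over the 8 libraries. It was at 5.00, 15.0, 12.7, 17.7 and 3.89 FPKM in ApoE-/- 1 to 5 and at 9.12, 4.62 and 5.17 in NPRC-/-ApoE-/- 1 to 3. ApoE-/- 2, 3 and 4 were the highest. ApoE-/- 1 and 5 were about as low as NPRC-/-ApoE-/- 2 and 3, with NPRC-/-ApoE-/- 1 in between. The log2 fold change by title was -0.80, as large as that of Igfbp4, with an SE of 0.54 (edgeR adjusted p = 0.528, exact permutation p = 0.321), and by genotype entry it was -0.00 (SE 0.59). The same 3 libraries, ApoE-/- 2, 3 and 4, had the lowest skeletal muscle markers (at most -1.16 log2 CPM on average). These libraries form 2 sets on that list, neither with 6 libraries, so no correlation is given over them, and the part of this split in the level of Igfbp2 was not tested. ApoE-/- 2, 3 and 4 also had the 3 highest mean levels of macrophage markers (7.82 to 8.49 log2 CPM) of all 8 libraries. Igfbp2 followed this list with r = 0.85 over the 8 libraries (exact permutation p = 0.010, adjusted 0.10; rho = 0.81, exact permutation p = 0.022, adjusted 0.18), with r = 0.83 without the 2 farthest libraries, and this did not pass the correction over the 100 relations of member and marker list. Leaving out ApoE-/- 5, the library with the lowest Igfbp2, brought the difference by title to -1.02 with an unadjusted edgeR p under 0.05 (adjusted p = 0.263). It was -0.50 without ApoE-/- 4 and -0.58 without NPRC-/-ApoE-/- 2 (edgeR adjusted p = 0.760 and 0.872).

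Igfbp5, a matrix-bound protein of the vessel wall and the convergent neighbour of Igfbp2, was at 77.3, 61.9, 42.8, 44.8 and 81.3 FPKM in ApoE-/- 1 to 5 and at 54.3, 69.8 and 69.3 in NPRC-/-ApoE-/- 1 to 3. The groups overlapped, with a log2 fold change of 0.11 by title (SE 0.22, edgeR adjusted p = 0.848) and 0.12 by genotype entry. Libraries with high Igfbp2 had low Igfbp5, with a Pearson r of -0.90 over the 8 libraries (exact permutation p = 0.0073, adjusted 0.16 over the 45 pairs of members) and a Spearman rho of -0.81 (exact permutation p = 0.022, adjusted 0.49), and r was -0.97 without the 2 libraries farthest from the median of Igfbp2. None of the pairs passed this correction (0 of 45), including Igf1 with Igfbp4 (r = 0.87, exact permutation p = 0.0050, adjusted 0.16; rho = 0.90, exact permutation p = 0.0046, adjusted 0.21), for which r was 0.60 without the 2 farthest libraries. Against the macrophage markers, Igfbp5 had r = -0.87 (exact permutation p = 0.0076, adjusted 0.085; rho = -0.76, exact permutation p = 0.037, adjusted 0.26), -0.81 without the 2 farthest libraries, and its deviations from the titled means had r = -0.98.

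Igfbp3 was at 2.92, 2.95, 2.49, 2.39 and 1.60 FPKM in ApoE-/- 1 to 5 and at 1.80, 2.00 and 2.40 in NPRC-/-ApoE-/- 1 to 3, with a log2 fold change of -0.23 by title (SE 0.23, edgeR adjusted p = 0.678) and -0.14 by genotype entry. Its titled groups overlapped, and ApoE-/- 5 was the lowest of all. Igfbp6 was at 10.1, 18.6, 20, 7.78 and 10.6 FPKM in ApoE-/- 1 to 5 and at 8.85, 11.7 and 10.7 in the others. ApoE-/- 2 and 3 stood above the remaining 6 libraries, and the log2 fold change was -0.35 by title (SE 0.33, edgeR adjusted p = 0.663). By genotype entry Igfbp6 had the largest difference of all members, -0.50 (SE 0.32, edgeR adjusted p = 1.0, exact permutation p = 0.286), and the groups overlapped. Igfbp7 was at 173, 210, 217, 219 and 151 FPKM in ApoE-/- 1 to 5 and at 156, 224 and 297 in NPRC-/-ApoE-/- 1 to 3. Its highest and its next to lowest values were both in the second set, and its log2 fold changes of 0.24 by title and 0.23 by genotype entry came with SEs of 0.25 and 0.26.

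Levels of cell type markers also differed between the titled groups, beside the differences of Igf1, Igfbp4 and Igf1r, although the mean levels of the smooth muscle, fibroblast and macrophage lists did not pass the exact permutation test at 0.05. All 8 smooth muscle markers were higher in the libraries titled NPRC-/-ApoE-/- (7 with an unadjusted p under 0.05), by 0.69 log2 CPM on average (exact permutation p = 0.0714). Of 8 fibroblast markers 7 were lower (2 with p under 0.05), by 0.70 on average (exact permutation p = 0.0714), and their summed FPKM was 735.5 to 1894 in the libraries titled ApoE-/- and 412.2 to 1066 in the others. All 8 macrophage markers were lower (3 with p under 0.05), with summed FPKM of 703.7 to 2196 and 339.0 to 1112 and an exact permutation p of 0.107 for their mean level. Endothelial markers were lower in 6 of 8 genes (0 with p under 0.05), with summed FPKM of 101.1 to 112.8 and 88.8 to 103.7 and a mean level lower by 0.17 log2 CPM (exact permutation p = 0.036, the smallest it allows). Schwann cell markers were lower in 5 of 5 tested genes, with summed FPKM of 23.2 to 27.5 and 16.8 to 20.6. By genotype entry the mean levels differed by 0.08 log2 CPM for smooth muscle, -0.10 for fibroblast, -0.21 for macrophage, -0.05 for endothelial and 0.17 for Schwann cell markers, with 0 of their genes at an unadjusted p under 0.05. Other lists differed by title by 0.52 (brown adipocyte), -0.22 (white adipocyte), 2.64 (skeletal muscle), -0.91 (chondrocyte) and -1.25 (cardiomyocyte, 2 tested genes), with exact permutation p of 0.25 to 0.714. By genotype entry these were -0.07, -0.09, 0.08, 0.30 and -2.74. Summed FPKM of brown adipocyte markers varied widely, from 115.4 in ApoE-/- 3 to 550.3 in ApoE-/- 5. In bulk tissue, fewer cells of a type and less RNA per cell cannot be told apart.

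Across the 8 libraries, Igf1 followed the mean fibroblast marker level with Pearson r = 0.93 (exact permutation p = 0.0005, adjusted 0.020 over 100 relations of member and list) and Spearman rho = 0.95 (exact permutation p = 0.0011, adjusted 0.057). The r was 0.92 without the 2 libraries farthest from the median marker level, and 0.85 for deviations from the means of the titled groups. Igf1 also followed the macrophage markers (r = 0.89, exact permutation p = 0.0025, adjusted 0.041; rho = 0.90, exact permutation p = 0.0046, adjusted 0.091), with r = 0.84 without the 2 farthest libraries. Igfbp4 followed the fibroblast markers (r = 0.92, exact permutation p = 0.0024, adjusted 0.041; rho = 0.90, exact permutation p = 0.0046, adjusted 0.091). Without the 2 farthest libraries this r was 0.81, and for deviations from the titled means 0.82. Igf1r followed the smooth muscle markers (r = 0.91, exact permutation p = 0.0020, adjusted 0.041; rho = 0.83, exact permutation p = 0.015, adjusted 0.17), with r = 0.60 without the 2 farthest libraries and 0.78 for deviations from the titled means. The only others of the 100 with an adjusted p of r under 0.05 were those of Igfbp4 with the endothelial and Schwann cell markers. The mean levels of both lists separate the titled groups, so only deviations from the titled means are given for them. For these deviations, the r of Igfbp4 was 0.89 with the endothelial and 0.73 with the Schwann cell markers, against 0.82 with the fibroblast markers. The part of these marker levels in the differences by title was not tested.

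**Figure D4:**
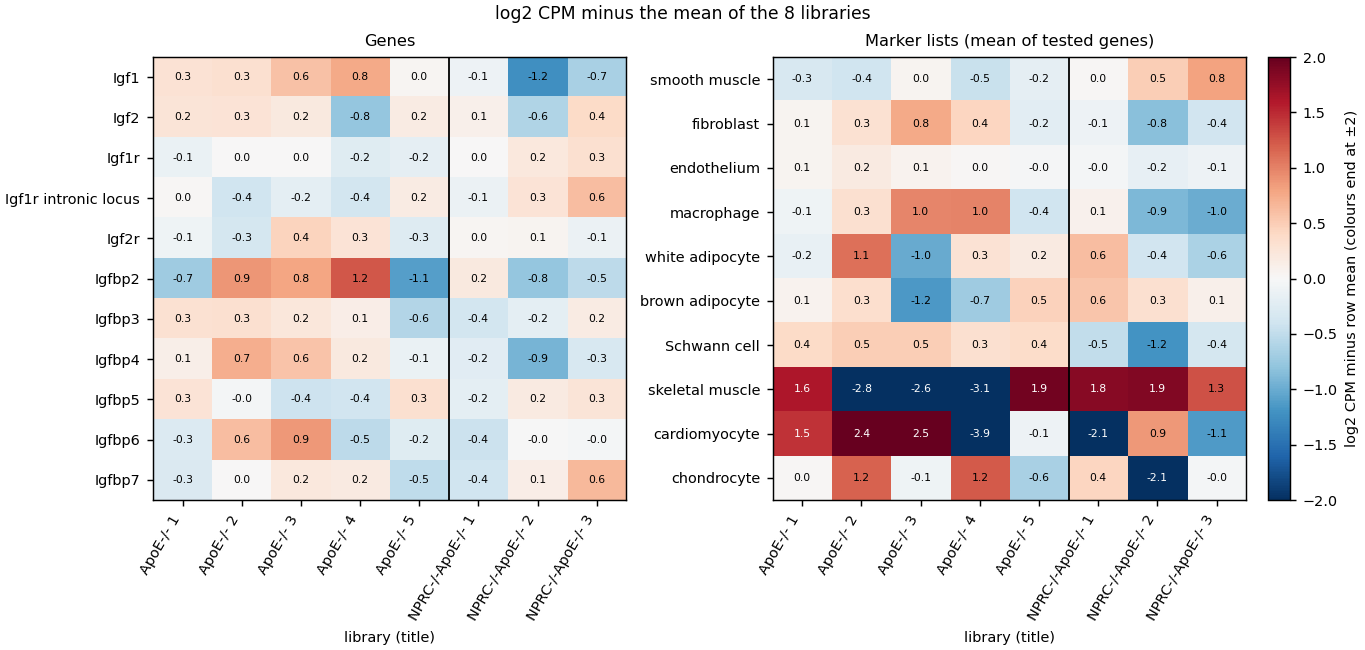
The log2 CPM of each gene (left) and the mean log2 CPM of the tested genes of each marker list (right), minus the mean of the row, in the 8 libraries by title, with red above and blue below the mean and a line between the titled groups. NPRC-/-ApoE-/- 2 has the lowest Igf1 and Igfbp4 and the lowest fibroblast level, and ApoE-/- 2, 3 and 4 have both the highest Igfbp2 and the lowest skeletal muscle level.

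The loci whose log2 CPM was most like that of each member over the 8 libraries were named by Pearson r, as a description over 3560 loci searched. For Igf1 they were Ccnd1 (r = 0.975), the gene of cyclin D1, Plcg2 (0.973), a phospholipase of immune cell signalling, and Ywhae (0.973), a 14-3-3 protein. For Igfbp4 they were Adamts5 (0.980), a proteoglycan-cleaving protease, and the complement gene C3 and the ceruloplasmin gene Cp (both 0.967). For Igf1r they were Cnot10 (0.959), Efhd1 (0.955) and Npr1 (0.930), the gene of the natriuretic peptide receptor that makes cGMP. Igfbp2 was most like Rpl26 (0.992), Atp6v0e (0.988) and Tspan17 (0.986). Igfbp5 was most like Id2 (0.986), an inhibitor of DNA binding, Amigo2 (0.946) and Osr1 (0.934). For Igfbp7 they were Igsf3 (0.966), Gm25395 (0.940) and Klhl21 (0.935), for Igf2r Dsel (0.934) and Agrn (0.914), and for Igfbp6 Gm10591, Hmgb1-ps2 and Gfpt2 (0.902 to 0.945). Likeness was lowest for Igfbp3, with Smurf1, Gm3531 and Lsp1 (0.903 to 0.921), and for Igf2, with Itgav, Clec3b and Fgd5 (0.814 to 0.841).

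The neighbours of the axis were read from a list of 19 genes for other carriers, proteases, protease inhibitors, the insulin receptor, its adaptors, RNA-binding proteins and the growth hormone receptor. Of these, 9 were tested, and by title 1 was higher with an unadjusted p under 0.05 and 0 were lower, with a median log2 fold change of -0.10, against 6.51% higher, 7.13% lower and a median of -0.006 over all loci. The one was Insr, the insulin receptor, at 12.2, 11.6, 10.3, 10.8 and 12.9 FPKM in ApoE-/- 1 to 5 and at 14.1, 13.8 and 14.2 in NPRC-/-ApoE-/- 1 to 3, with no overlap, which 2.88% of loci showed in this direction. Its log2 fold change was 0.31 by title (SE 0.10, edgeR adjusted p = 0.309) and 0.06 by genotype entry (SE 0.16). By genotype entry 0 of the 9 had an unadjusted p under 0.05.

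Pappa, which encodes the protease that cleaves the product of Igfbp4, was at 1.46, 1.51, 2.89, 2.44 and 0.73 FPKM in ApoE-/- 1 to 5 and at 1.44, 0.68 and 0.79 in NPRC-/-ApoE-/- 1 to 3, with a log2 fold change of -0.92 (SE 0.47, edgeR adjusted p = 0.419) by title, -0.24 by genotype entry, and overlapping titled groups. It is named for this role, after its values were seen. Igfbp1, the binding protein made mainly by liver, was listed at 0 FPKM in all libraries. Igfbpl1 reached 0.07, Igf2bp1 0.01, Pappa2 0.38, Igf2bp3 0.54 and Igf2bp2 0.91 FPKM at most. Stc1 and Stc2, which encode stanniocalcins that inhibit these proteases, reached 1.31 and 1.13, Igfals, which encodes the acid-labile subunit of the circulating IGF complex, reached 1.18, and H19, the imprinted neighbour of Igf2 and here in 1 locus with Mir675, reached 2.26. These 10 genes did not pass the filter on low values and were not tested.

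**Figure D5:**
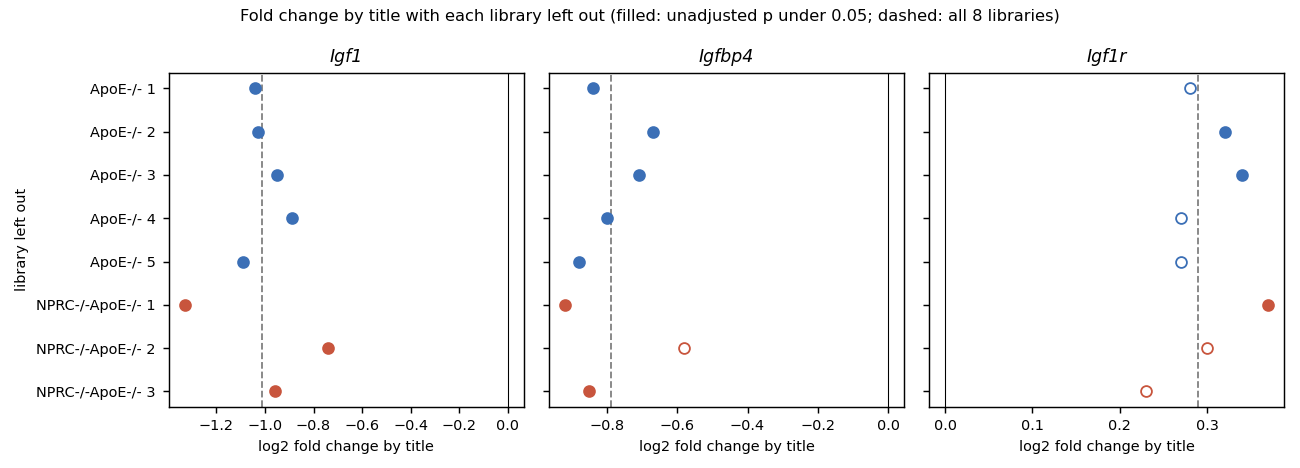
The log2 fold change by title (x axis) of Igf1, Igfbp4 and Igf1r with each library left out in turn (y axis), filled where the unadjusted edgeR p was under 0.05 and coloured by the title of the library left out (blue ApoE-/-, red NPRC-/-ApoE-/-); the dashed line is the value with all 8 libraries. Igf1 stays between -1.33 and -0.74 with all points filled, Igfbp4 between -0.92 and -0.58 with 1 point open, and Igf1r between 0.23 and 0.37 with 5 points open.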

How the data were processed

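Poly(A) RNA of whole aorta was sequenced as read pairs from strand-marking (dUTP) libraries. Per the methods and the submitters' processing notes, the authors used cutadapt 1.9 for trimming, HISAT2 for mapping and StringTie for assembly, on GRCm38. The deposited table holds raw counts (whole numbers, not normalized) and FPKM values that the authors scaled to transcript length and library. How counts were derived, and whether the counting used strand, is not given in the sources used here. No column of per-sample values (0) lacked a sample.

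Of 48607 loci, 20506 reached 1 FPKM in 3 or more libraries and entered the test in edgeR 4.0.16 (R 4.3.3; TMM, quasi-likelihood test, Benjamini-Hochberg adjustment over all loci tested), after a run on simulated data. All 10 members passed this filter. Levels per library are given as log2 CPM (prior count 2) and were compared by two-sided exact permutation tests in scipy 1.17.1. The number of libraries limits the precision (biological coefficient of variation 0.327, total counts 62969165 to 86693276).

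A member was the row carrying its symbol with the most counts. Named besides the members are listed neighbours with an unadjusted p under 0.05 or left untested, and the 3 loci most like each member among 3560 with 1 gene name, an Ensembl transcript and a mean of at least 5 FPKM. The result of 1 locus is not reported here. Members and lists were chosen with earlier results of these data known. Alternatives covered the grouping, test (DESeq2 1.42.0, limma 3.58.1), pseudocount, filter, scaling, replicate block, each library left out and, added after seeing the data, the locus used for Igf1r.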

Additional observations from a re-analysis of the deposited data

Results flagged for a closer look

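Of 22 sets of libraries (11 loci, in each case the 5 libraries of 1 group by title or by genotype entry), 3 held a library set apart from the other 4 by more than Dixon's 95% critical value, where chance gives about 1.1. Igf2 was at 2.36 log2 CPM in ApoE-/- 4, against 3.29 to 3.41 in the other 4 libraries titled ApoE-/-. It was also at 2.53 log2 CPM in NPRC-/-ApoE-/- 2, against 3.23 to 3.41 in the other 4 libraries with the genotype entry Apoe-/-. Igfbp3 was at 2.54 log2 CPM in ApoE-/- 5, against 3.27 to 3.46 in the other 4 libraries titled ApoE-/-.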

How the results depend on the processing

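By title, Igf1 kept its direction and an unadjusted p under 0.05 in the 18 tested alternatives other than the genotype entry (log2 fold change -1.33 to -0.74, adjusted p 0.0187 to 0.745), and Igfbp4 in all of these but the fit without NPRC-/-ApoE-/- 2 (over all of them -1.01 to -0.58, adjusted p 0.0416 to 0.755). Igf1r lost its unadjusted p under 0.05 in 11 of its alternatives. The number of members with p under 0.05 by title was 2. It was 0 with the genotype entry, where Igf1 was at 0.07 and Igf1r at -0.04. When a library was left out, it ranged from 1 (without NPRC-/-ApoE-/- 2) to 4 (without ApoE-/- 5). The whole table moved too, as 404 and 1132 loci met the study's criterion in these fits. The percent of all loci with p under 0.05 in them is not given here. By genotype entry the number of members was 0 in every alternative run.

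The 712 loci that met the study's criterion by title became 175 with limma on log2(FPKM + 1), against 662 on log2(FPKM + 0.1), 95 with the genotype entry, 2287 with no filter (44689 loci tested), 114 with a mean of at least 5 FPKM (4246 tested), and 403 to 1635 with a library left out. By genotype entry 95 loci became 23 with limma, 33 with array weights, 785, 7, and 84 to 240 under the same changes. Apart from the number of loci tested and the pseudocount in limma, the cause was not tested.

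Same-numbered libraries were not alike in their deviations from the group means (r = -0.314, -0.113 and 0.007, against a mean of 0.0698 for other pairs). With only 3 libraries on each side, these values cannot settle whether the numbers mark pairs. A replicate block over 6 libraries gave 800 loci and 2 members, against 917 and 2 for those libraries without it.

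By title, Igf2r changed sign to 0.07 with a mean of at least 5 FPKM and to 0.00 with the replicate block. With a library left out, Igf2 ranged from -0.27 to 0.20, Igf2r from -0.11 to 0.10 and Igfbp7 from -0.04 to 0.46. By genotype entry, Igfbp2 was at 0.01 with DESeq2, with no filter and with median-ratio scaling, and Igf1 at -0.10 with array weights. With a library left out, the ranges that crossed 0 by genotype entry were Igf1 -0.33 to 0.35, Igf2 -0.30 to 0.23, Igf1r -0.24 to 0.09 and its intronic locus -0.01 to 0.50, Igf2r -0.19 to 0.07, Igfbp2 -0.99 to 0.38, Igfbp3 -0.27 to 0.06, Igfbp5 -0.01 to 0.33 and Igfbp7 -0.07 to 0.48. The 4 libraries with agreeing labels allowed no count of calls.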
